A study of Mus musculus with 8 samples.

Results

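The TOX family consists of Tox, Tox2, Tox3 and Tox4, 4 genes for nuclear proteins that share a single DNA-binding HMG box. All 4 were found by their Ensembl identifiers among the 39056 genes of the deposited raw count table, and their RNA was compared between the CD4+ T cells of 2 T cell receptor clones, named ANT and SAS. In both clones the mice were on the C57BL/6J background and had received bone marrow progenitors of the genotype CD4-Cre TCRβtg Tcra-/-, in which the CD4 promoter drives Cre in T cells, a TCRβ chain is carried as a transgene and the endogenous TCRα gene is deleted. A retrovirus supplied the TCRα chain, either ANT or SAS, so that each clone is represented by 1 TCRα construct. CD4+ T cells were sorted by flow cytometry from a pool of spleen and lymph nodes. The ANT clone had 4 libraries (replicates 1, 3, 4 and 5) and the SAS clone had 4 (replicates 1, 2, 3 and 6). Per its title, the series is about a T follicular helper-like state that self-reactive CD4+ clones adopt without immunisation, and the labels used here do not say which clone was self-reactive, the age of the mice, or whether each library came from its own mouse. The p-values below therefore measure only the spread between these libraries, which may be technical. Library totals ran from 27600959 to 31810799 counts. On the second principal component of all genes tested, with 10.6% of the variance, ANT replicates 1 and 3 lay opposite ANT replicates 4 and 5. SAS replicates 1 and 6 lay on the side of ANT replicates 1 and 3 (scores 23.6 and 10.7). SAS replicates 2 and 3 lay on the other side (scores -25.0 and -4.42). The results were also computed without either ANT pair, and no pair of SAS libraries was left out. In bulk RNA, fewer cells of a type and less RNA per cell cannot be told apart.

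HMG-box proteins of this family bend DNA and recognise its shape more than a fixed sequence. Tox is required for CD4+ T cells to develop in the thymus and for innate lymphoid cells, and it is induced through calcineurin and NFAT in T cells that meet antigen repeatedly. Tox2 is known for its role in T follicular helper cells, the CD4+ cells that help B cells in germinal centres. Tox4 is expressed in most tissues and belongs to a phosphatase complex with PP1, the scaffold PNUTS and WDR82. Tox3 is known mainly from neurons and epithelia, where it acts with CREB and CBP.

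The family resemblance is strongest around the HMG box, and the stretch below is printed because reads from near-identical exons could be assigned to the wrong member. It is a 90-base coding stretch leading into the HMG box, in the coding strand of GENCODE M21 transcripts (GRCm38). It begins at coding base 751 of 1581 in Tox, 832 of 1644 in Tox2, 730 of 1728 in Tox3 and 637 of 1860 in Tox4. Capitals mark bases that differ from Tox.
Tox: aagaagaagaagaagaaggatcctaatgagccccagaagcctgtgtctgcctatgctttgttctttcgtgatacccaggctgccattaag
Tox2: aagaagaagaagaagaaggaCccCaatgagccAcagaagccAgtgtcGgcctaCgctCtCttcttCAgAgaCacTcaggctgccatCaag
Tox3: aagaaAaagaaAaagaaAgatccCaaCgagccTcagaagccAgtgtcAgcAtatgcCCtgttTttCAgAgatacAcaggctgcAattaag
Tox4: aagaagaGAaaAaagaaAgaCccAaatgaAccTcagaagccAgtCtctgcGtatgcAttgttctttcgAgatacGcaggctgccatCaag

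Of the 90 bases, Tox2 shared 76 with Tox (84.4%), Tox4 shared 75 (83.3%) and Tox3 shared 73 (81.1%). The differences were spread along the stretch, except that the first 20 bases of Tox2 were the same as in Tox. The longest uninterrupted run shared by any pair of full transcripts of the family was 24 bases, between Tox and Tox3. For Tox and Tox2 it was 20 bases, and for Tox and Tox4 it was 19. How reads that map to several places were treated is not given in the sources used here.

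Tox and Tox2 were both higher in SAS cells than in ANT cells, Tox by 3.11-fold and Tox2 by 22.0-fold, and in each case every SAS library lay above every ANT library. Tox4 differed little between the clones and did not pass the test. Tox3 was at the limit of counting in both. Of the 3 members that passed the low-count filter, 2 were called at an adjusted p of 0.05 with edgeR's quasi-likelihood test, both higher in SAS. Tox2 passed the filter through its SAS libraries, with 146 to 342 counts each against 4 to 18 per ANT library. That Tox2 was tested and that it was higher in SAS are therefore not independent. Across all 12619 genes tested, 37.4% were called, 19.8% as higher in SAS and 17.7% as higher in ANT, and on library size alone, without the TMM scaling, 64.8% of called genes were higher in SAS in place of 52.8%. In 20.5% of genes every SAS library lay above every ANT library. With so many genes different between the clones, a call by itself does not set Tox or Tox2 apart, and the sizes of the differences are given below. Values are TMM-scaled CPM (a gene's share of all counts, put on a common scale of 1000000), which allow comparison of a gene between libraries but not of genes with each other.

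Tox (ENSMUSG00000041272.11) lies on the minus strand of chromosome 4, from 6686353 to 6991557 (GRCm38). Its level was 79.7, 83.5, 82.1 and 77.6 CPM in ANT replicates 1, 3, 4 and 5, and 216, 284, 275 and 229 CPM in SAS replicates 1, 2, 3 and 6. The ANT libraries were close together and the SAS libraries were more spread, with replicates 2 and 3 above replicates 1 and 6. Means were 80.7 ± 2.59 CPM in ANT and 251 ± 33.8 CPM in SAS (SD, n = 4 each), a coefficient of variation of 3.21% against 13.4%. The log2 fold change was 1.64 (SE 0.11, 95% interval 1.39 to 1.88), with an adjusted p of 2.64e-06 in edgeR. Without ANT replicates 4 and 5 it was 1.60, and without ANT replicates 1 and 3 it was 1.65. By the size of its fold change Tox stood 922nd of 12619 genes from the SAS-high end. By mean level per exon length (TPM, explained below) it stood 4636th of 12595 genes in ANT cells and 1388th in SAS cells.

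Tox2 (ENSMUSG00000074607.11) lies on the plus strand of chromosome 2, from 163203125 to 163324170. It was counted 11, 4, 5 and 18 times in ANT replicates 1, 3, 4 and 5, and 219, 146, 342 and 191 times in SAS replicates 1, 2, 3 and 6. These counts correspond to 0.379, 0.147, 0.180 and 0.621 CPM in ANT and to 6.67, 5.12, 11.8 and 6.14 CPM in SAS. Tox2 RNA was thus detected in all 8 libraries, at a trace level in ANT and at a low level in SAS. Means were 0.332 ± 0.218 CPM in ANT and 7.43 ± 2.98 CPM in SAS (SD, n = 4 each). The log2 fold change was 4.46 (SE 0.45, 95% interval 3.47 to 5.45), with an adjusted p of 3.09e-05 in edgeR, and the fold itself had an interval of 11.1 to 43.6. The log2 fold change was 4.76 without ANT replicates 4 and 5 and 4.19 without ANT replicates 1 and 3. The width of that interval goes with the 38 counts that all ANT libraries held together, against 898 in SAS. Tox2 stood 202nd of 12619 genes from the SAS-high end by fold change. By mean level per exon length it stood 11947th of 12595 genes in ANT cells and 8878th in SAS cells.

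Tox4 (ENSMUSG00000016831.11) lies on the plus strand of chromosome 14, from 52279146 to 52296401. Its level was 123, 125, 130.1 and 125 CPM in ANT replicates 1, 3, 4 and 5, and 151, 129, 138 and 145 CPM in SAS replicates 1, 2, 3 and 6. The groups overlapped, since SAS replicate 2 lay below ANT replicate 4. Means were 126 ± 3.08 CPM and 141 ± 9.64 CPM (SD, n = 4 each), and the log2 fold change was 0.16 (SE 0.09, 95% interval -0.03 to 0.35; adjusted p 0.177, edgeR). On the fold scale the interval ran from 0.977 to 1.28, which leaves room for a modest difference and none for one as large as that of Tox. Without the TMM scaling, on library size alone, the log2 fold change was 0.26 and Tox4 was called (adjusted p 0.0437, edgeR).

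Tox3 (ENSMUSG00000043668.13) lies on the minus strand of chromosome 8, from 90247040 to 90348343. It had 2, 0, 0 and 2 counts in ANT replicates 1, 3, 4 and 5, and 0, 3, 0 and 0 counts in SAS replicates 1, 2, 3 and 6. It fell below the low-count filter and was not tested. Scaled for depth, the ratio of SAS to ANT was 0.697 from 4 counts in ANT and 3 in SAS, with a 95% exact interval of 0.102 to 4.12 that covers counting error only. In libraries without a count, a level of up to 0.0914 to 0.110 CPM would be compatible with 0 counts (3 counts of the library). No difference in Tox3 between the clones was detectable at this depth.

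**Figure D1:**
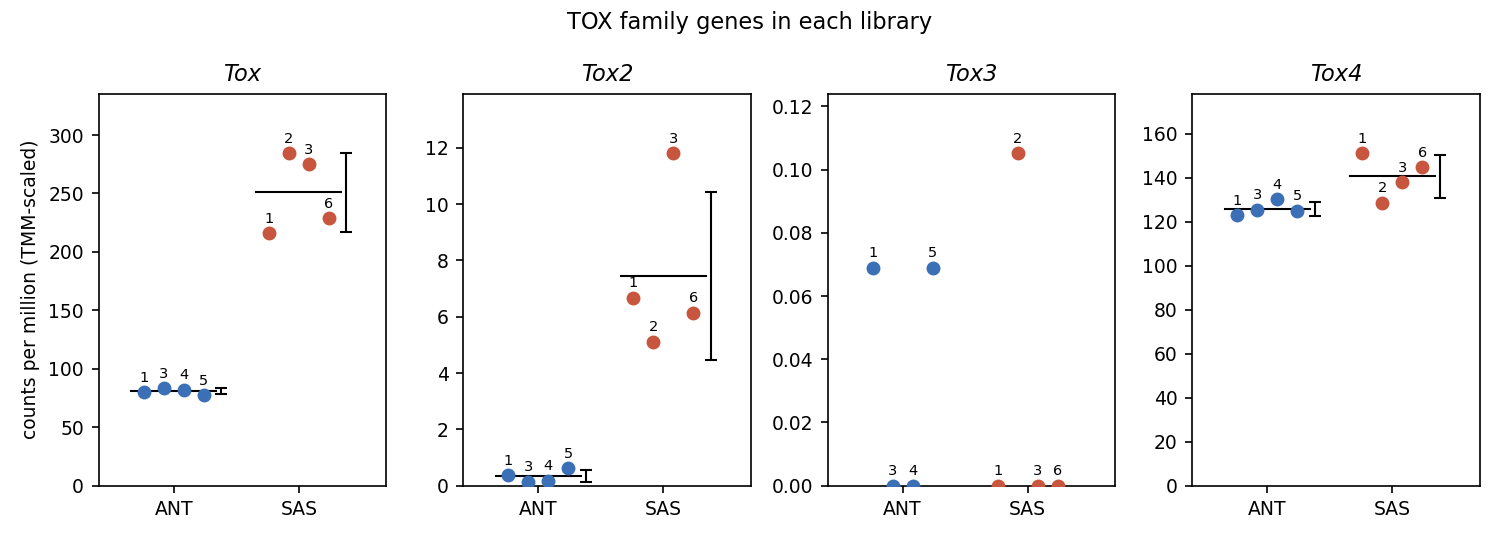
TMM-scaled CPM of Tox, Tox2, Tox3 and Tox4 (vertical axis, linear, a separate scale per panel) in the 4 ANT (blue) and 4 SAS (red) libraries; small numbers are replicate numbers, lines are means and bars are SDs, left out for Tox3. Tox and Tox2 separate the clones without overlap, Tox4 overlaps (SAS replicate 2 at 129 below ANT replicate 4 at 130.1), and Tox3 never passes 0.105.

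The changes of the members differed from each other. For each library the log2 ratio of 2 members was taken, which does not depend on how libraries are scaled, and the clones were compared in an exact two-sided permutation test. In that exact test all 3 pairs of tested members reached p = 0.0286, the smallest p that 4 against 4 libraries allow, and the value was also 0.0286 after Benjamini-Hochberg adjustment over the 3 pairs. The log2 ratio of Tox2 to Tox was 2.92 higher in SAS (-8.06 ± 0.948 in ANT, -5.14 ± 0.518 in SAS, SD, n = 4 each), the ratio of Tox2 to Tox4 was 4.39 higher, and the ratio of Tox to Tox4 was 1.47 higher. With any library left out the smallest possible p is 0.0571, so the pairwise test cannot then pass.

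To set the members beside each other, counts were divided by the summed length of each gene's exons and rescaled to sum to 1000000 in each library (TPM). In ANT cells Tox4 stood highest, then Tox, then Tox2, then Tox3. In SAS cells Tox stood highest, then Tox4, then Tox2, then Tox3, so the order of the leading pair was exchanged. Tox measured 31.2, 33.6, 34.7 and 35.2 TPM in ANT replicates 1, 3, 4 and 5 against 52.7, 55.2, 60.2 and 62.0 TPM for Tox4. In SAS replicates 1, 2, 3 and 6 Tox measured 97.0, 139.6, 131 and 109 TPM against 74.3, 69.1, 71.7 and 75.4 TPM for Tox4. Tox was therefore below Tox4 in 4 of 4 ANT libraries, at a mean ratio of 0.586, and above it in 4 of 4 SAS libraries, at a mean ratio of 1.65. The exchange was also seen with the length of 1 coding transcript per gene in place of all exons, with mean ratios of 0.867 and 2.44, a choice of length made after the data were seen. On the TPM scale, which carries no TMM scaling, Tox4 itself did not overlap between the clones (57.5 ± 4.32 in ANT, 72.6 ± 2.82 in SAS, SD, n = 4 each). Apart from exon length, TPM and CPM differ by the same factor for every gene of a library. Cd4, which was not called, went from a mean of 936 to 907 CPM but from 738 to 810 TPM. The share of all genes without overlap in TPM was not computed, so this is no separate result on Tox4.

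Tox2 RNA remained the minor partner of Tox in both clones. Per exon length it amounted to 1.06%, 0.394%, 0.491% and 1.79% of Tox in ANT replicates 1, 3, 4 and 5, and to 6.91%, 4.03%, 9.60% and 6.00% in SAS replicates 1, 2, 3 and 6. Sums of TPM, compared between the clones, carry the shift in scale shown above for Cd4. The whole family summed to between 84.3 and 97.9 TPM in ANT and between 178 and 215 TPM in SAS. Tox made up 36.8% ± 0.776 of that sum in ANT and 59.4% ± 4.62 in SAS, and Tox4 made up 62.8% and 36.7% (SD, n = 4 each). The share of Tox2 was 0.341% in ANT and 3.91% in SAS. Within the SAS libraries the members did not follow a common order. Replicate 2 had the highest Tox but the lowest Tox2 and Tox4, replicate 3 had the highest Tox2, and replicate 1 had the lowest Tox and the highest Tox4 in CPM.

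**Figure D2:**
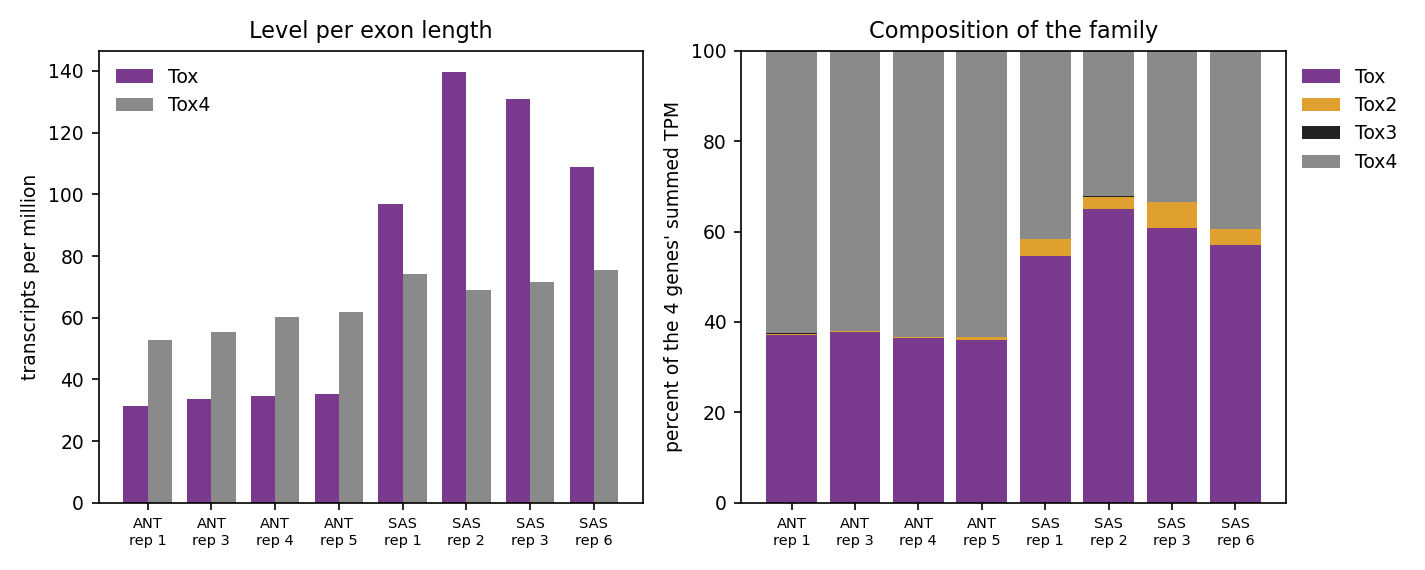
Left, level of Tox and Tox4 per exon length (TPM, linear axis from 0) in each library; right, each member as a percent of the summed TPM of the 4 genes in each library. Bars are single libraries without error bars; Tox is below Tox4 in the 4 ANT libraries and above it in the 4 SAS libraries, and Tox2 is visible as a band mainly in SAS (2.62% to 5.84%).

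Other genes with an HMG box were compared to see where the family stood among its wider relatives. Of 27 such genes 26 were tested, and 8 were higher in SAS, 4 were higher in ANT and 14 were not called, with a median log2 fold change of 0.16 against -0.00 over all genes tested. Ranked by fold change together with the TOX genes, Tox2 stood 1st, Tox 6th and Tox4 16th of 29. Between Tox2 and Tox stood Sox4, Sox13, Sox12 and Hmgb3. Sox4, a SoxC factor of early lymphocytes, rose from 33.3 ± 7.84 to 323 ± 72.9 CPM (log2 fold change 3.28, SE 0.21, adjusted p 1.82e-06, edgeR). Hmgb3, an HMGB protein of blood progenitors, rose from 8.92 ± 0.718 to 29.7 ± 2.40 CPM (log2 fold change 1.74, adjusted p 2.35e-06, edgeR). Tcf7 and Lef1, the factors of Wnt signalling that are abundant in naive T cells, differed by 0.05 and -0.01 and were not called. The count higher in ANT fell to 2 on library size alone and without SAS replicate 3 or 6. By level per exon length among the 31 genes, Tox moved from 16th in ANT to 8th in SAS, while Tox4 stood 13th and 14th.

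**Figure D3:**
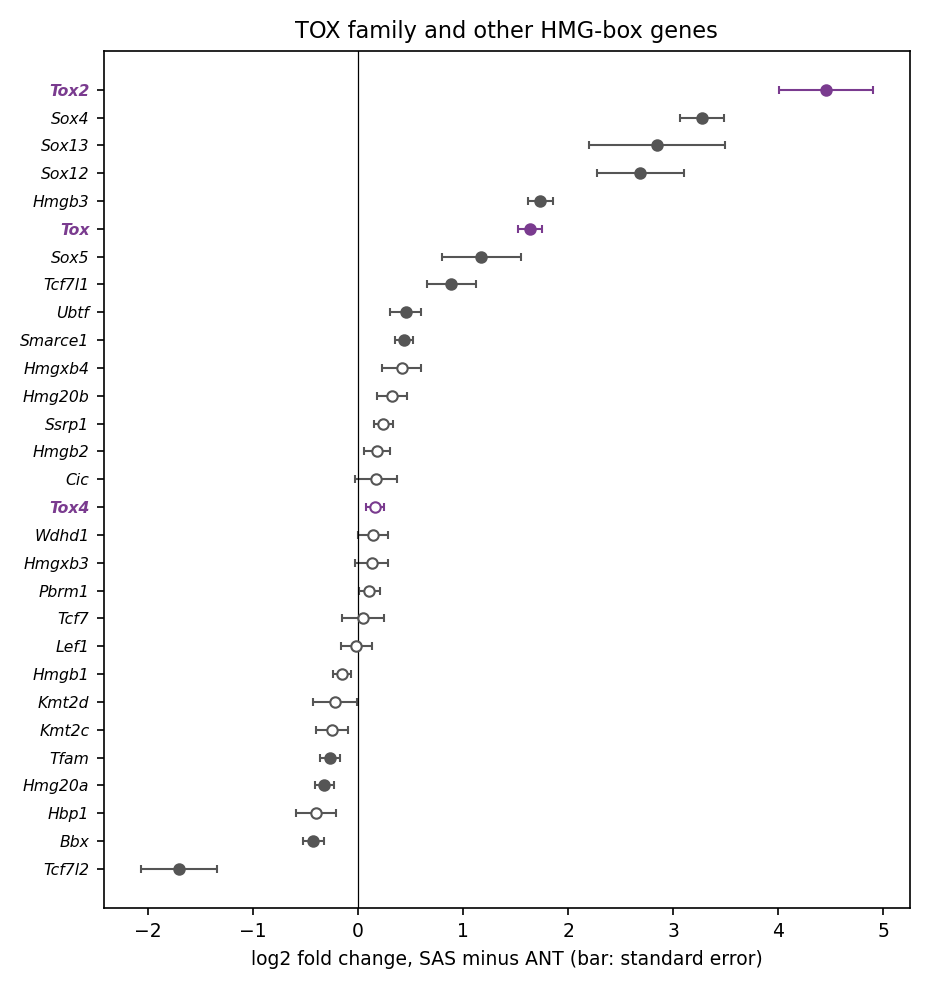
Log2 fold change (SAS minus ANT, horizontal axis) of the 3 tested TOX genes (purple) and 26 other genes with an HMG box (grey), ordered by size; bars are standard errors from edgeR, and filled points are genes called at an adjusted p of 0.05. Tox2 heads the order at 4.46, Tox is sixth at 1.64, and Tox4 lies near the middle at 0.16.

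Genes that act upstream of Tox and Tox2 were next examined. Their counts stand beside 19.8% of all genes tested called higher in SAS and 17.7% called higher in ANT. Of 10 genes of calcineurin, NFAT and the NR4A receptors, 4 were higher in SAS, 1 was higher in ANT and 5 were not called. The median log2 fold change of these genes was -0.02. The 4 were the NR4A genes and Nfatc1, which are themselves switched on by T cell receptor signalling. Nr4a3 rose from 14.5 ± 2.29 to 736 ± 127 CPM (log2 fold change 5.66, adjusted p 1.77e-08, edgeR), and for Nr4a1 the log2 difference was 3.67 (adjusted p 5.31e-08, edgeR). The calcineurin catalytic subunit gene Ppp3ca fell by 1.47 on the log2 scale (adjusted p 0.0104, edgeR). Without ANT replicates 4 and 5 its log2 fold change was -0.99 and it was not called (adjusted p 0.148, edgeR). Nfatc2 and Nfatc3 differed by -0.65 and -0.15 and were not called.

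Promoter windows of Tox2 from RefSeq (GRCm38.p6) are shown because Tox2 had the largest change of the family and starts from more than 1 site. The table holds 5 windows for Tox2. The 2 shown are those of the first start and of the first start well inside the gene, each cut where an annotated exon begins, and the other 3 were not searched. The first is the window at the upstream start, chr2:163202877-163203124, plus strand, 248 bases. The second is a window at a start inside the gene, chr2:163225203-163225362, plus strand, 160 bases. Both strands were searched for the NFAT core GGAAA, the NR4A element AAAGGTCA, the AP-1 element TGANTCA, the EGR element GCGTGGGCG and the GC box GGGCGG, with overlapping matches counted, and capitals mark the letters that matched.
Tox2 upstream start: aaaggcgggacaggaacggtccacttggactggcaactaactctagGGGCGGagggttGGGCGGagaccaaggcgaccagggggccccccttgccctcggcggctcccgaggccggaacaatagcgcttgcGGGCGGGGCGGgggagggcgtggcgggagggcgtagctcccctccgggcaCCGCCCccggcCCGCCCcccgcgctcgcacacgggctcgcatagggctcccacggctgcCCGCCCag
Tox2 intronic start: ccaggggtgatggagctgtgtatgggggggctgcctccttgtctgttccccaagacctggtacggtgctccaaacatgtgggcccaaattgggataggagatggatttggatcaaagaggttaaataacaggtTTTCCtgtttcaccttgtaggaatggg

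The upstream window had a GC content of 75.0% and held 7 matches to the GC box. At least 1 such match is held by 32.5% of all 32851 promoter windows of that length, and the share with 7 was not computed. The upstream window held no match to the letters GGAAA (in 55.3% of windows), AAAGGTCA (1.32%), TGANTCA (6.73%) or GCGTGGGCG (0.536%). Of windows as long as the intronic one, 41.8% hold at least 1 match to GGAAA. The intronic window held 1, on the minus strand, and no match to the other elements. These are matches of letters in the reference sequence and were not measured in these cells. Counts per gene do not show which start the Tox2 RNA came from.

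The cell states in which Tox and Tox2 are best known were described through lists of their genes. Of 16 genes that accompany Tox in chronically stimulated T cells, 12 were tested and 11 were higher in SAS, with a median log2 fold change of 5.74. Across all genes tested, 19.8% were called higher in SAS. The list was chosen with earlier results of these data known, so it is not independent evidence of its direction. It shares Nr4a2 with the list of upstream genes. The smallest p-values were those of Lag3, an inhibitory receptor for MHC class II (8.18), and Eomes, a T-box factor of effector and memory cells (7.82), each with an adjusted p of 4.03e-09 in edgeR. Cd101, a surface receptor, was the tested gene that was not called (0.22). Havcr2, Cd244a, Entpd1 and Cxcr6 were below the filter. The list therefore included genes with changes far larger than that of Tox.

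For T follicular helper cells, 14 of 16 genes were tested and 13 were higher in SAS, beside 19.8% of all genes tested. The median log2 fold change of the list was 2.25. Pou2af1, a coactivator of octamer-binding factors, had 4.17 (adjusted p 3.14e-08, edgeR), and Bcl6, the lineage-defining repressor, had 2.27 (adjusted p 7.74e-08, edgeR). Batf was not called (0.23), and Ascl2 and Il4 were below the filter. Since the study's own title names this cell state, the list is not independent evidence of its direction, and it shares Pdcd1 and Btla with the list for chronic stimulation.

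Tox is also required in thymic CD4 development and in innate lymphoid cells, and genes of both settings were counted. The counts are given as a description, beside 19.8% of all genes tested called toward SAS and 17.7% called toward ANT. Of 14 thymic factors 4 were higher in SAS, 3 were higher in ANT and 7 were not called, with a median of -0.02. Myb, a factor of proliferating progenitors, rose from 46.9 to 784 CPM (log2 fold change 4.06, adjusted p 1.51e-08, edgeR), and Zbtb17, the factor Miz-1, had 0.79 (adjusted p 0.000481, edgeR). Themis, a signalling protein of thymocyte selection, fell by 1.13, Bcl11b fell by 0.78 and Satb1 fell by 0.53 on the log2 scale (adjusted p 0.000801, 0.021 and 0.0209, edgeR). Themis alone of these was called without SAS replicate 1, without SAS replicate 6 or without ANT replicates 4 and 5, and 6 thymic genes were called higher in ANT without ANT replicates 1 and 3. The CD4-lineage factors Zbtb7b and Gata3 were not called. Of 10 tested innate lymphoid genes, 3 were higher in SAS, among them Eomes and the interleukin-2 receptor chain Il2rb (6.49), and Il7r, the interleukin-7 receptor chain, was higher in ANT (-2.65, adjusted p 0.000257, edgeR), with 6 not called. Il7r had -1.84 without ANT replicates 4 and 5 and -3.17 without ANT replicates 1 and 3. Without ANT replicates 4 and 5 the count higher in SAS was 5.

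Genes for known protein partners of the family were examined as well, beside the 37.4% of all genes tested that were called. None of the 5 genes of the Tox4 phosphatase complex was called by edgeR, with 1 at an unadjusted p under 0.05, and DESeq2 called 0. Without ANT replicates 4 and 5, 2 were called higher in SAS. Ppp1r10, which encodes PNUTS, had 0.32 (adjusted p 0.106, edgeR) and Wdr82 had -0.17. Of 10 genes of the HBO1 acetyltransferase complex, which TOX binds, 8 were not called, and Jade1 and Ing5, a scaffold and a chromatin reader subunit, were higher in ANT (-0.61 and -0.53, adjusted p 0.00217 and 0.00717, edgeR). The catalytic subunit Kat7 had -0.13 (adjusted p 0.256, edgeR), and without ANT replicates 1 and 3 the count higher in ANT was 6. Of 6 tested genes of the CREB pathway with which Tox3 is linked, the coactivator Crtc1 was higher in SAS (0.89, adjusted p 0.00541, edgeR), Crtc3 was higher in ANT (-0.76, adjusted p 0.0321, edgeR), and 4 were not called. Crtc3 was not called on library size alone, without ANT replicates 4 or 5, or without SAS replicates 1, 3 or 6.

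**Figure D4:**
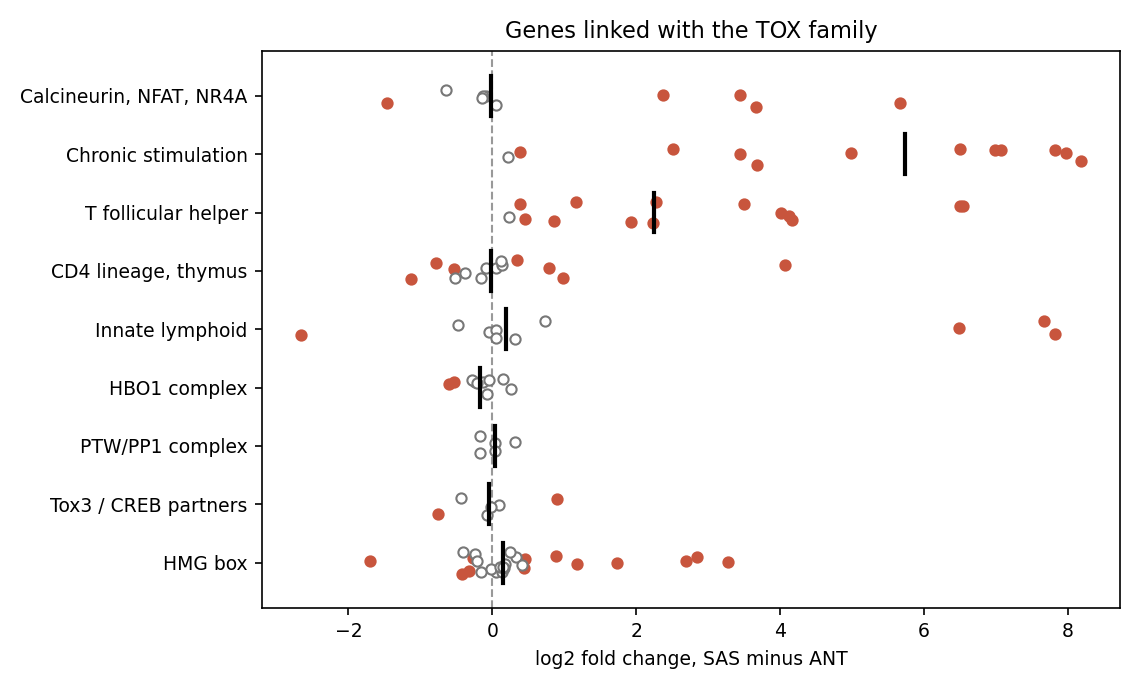
Log2 fold change (SAS minus ANT, horizontal axis) of every tested gene in 9 lists linked with the TOX family (rows); each point is a gene, filled red where called at an adjusted p of 0.05 in edgeR, the black bar is the list's median, and the dashed line is the median of all genes tested. The medians of the lists for chronic stimulation (5.74) and T follicular helper cells (2.25) lie to the right, and the other 7 lie between -0.17 and 0.18.

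The genes around each member were examined to see whether whole neighbourhoods differed. Tox lies apart from other tested genes. Its nearest on the lower-coordinate side were Nsmaf, an adaptor of the TNF receptor, 232 kb away, which rose from 98.5 ± 14.8 to 225 ± 21.0 CPM (log2 fold change 1.19, SE 0.13, adjusted p 4.78e-05, edgeR), and Sdcbp, a scaffold protein, which did not pass (-0.02, adjusted p 0.921, edgeR). On the other side Rab2a did not pass (-0.27, adjusted p 0.0537, edgeR), though DESeq2 called it (adjusted p 0.0186), as did edgeR without ANT replicate 5 or SAS replicate 3. Beside Tox2, Oser1 at 81.7 kb was higher in ANT (-0.55, adjusted p 0.00389, edgeR), and Mybl2, Ift52 and Fitm2 were not called, the last pair being called without ANT replicates 1 and 3 (0.64 and -0.55). An antisense gene, Gm11802, overlaps Tox and was not analysed here.

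The Tox4 locus is crowded. Its ends overlap genes on the opposite strand, Rab2b over 400 bases and Mettl3, the catalytic subunit of the RNA m6A methyltransferase, over 1561 bases. The libraries were strand-specific per the labels, but the strand setting of the counting is not given in the sources used here, so the Tox4 counts are uncertain to the extent that such reads were shared. Neither neighbour was called (0.13 and -0.06; adjusted p 0.336 and 0.775, edgeR). Sall2, a zinc-finger gene 14.8 kb from Tox4, rose from 4.88 ± 0.225 to 20.7 ± 0.496 CPM (log2 fold change 2.08, SE 0.11, adjusted p 5.66e-07, edgeR), beside a Tox4 that did not pass. Near Tox3, Nod2 and Cyld were higher in ANT (-1.07 and -0.45), while Chd9 and Rbl2 were not called. Rbl2 was called without SAS replicate 2.

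Genes whose profile over the 8 libraries was most like each member were found by the root mean square difference of centred log2 CPM, among 10849 protein-coding genes. Nearest to Tox were Rnf144a, St6galnac4, Vangl2, Bend3 and Tedc1, at distances of 0.0914 to 0.109. Nearest to Tox2 were Mcm10, Acot7, Gpr83, Rasgrp4 and Spry4, at 0.393 to 0.477, so that no gene followed Tox2 as closely as those 5 followed Tox. The distances of Tox2 rest on 4 to 18 counts per ANT library, against 2252 to 2312 for Tox. The part of counting noise in them was not tested. Nearest to Tox4 were Gpat4, Kctd5, Traf6, Sirt2 and Sdad1, at 0.0372 to 0.0465. None of these 5 was called by edgeR, beside 37.4% of all genes tested, with 2 at an unadjusted p under 0.05, while DESeq2 called 1, Traf6. They were chosen for a profile like that of Tox4, which was not called, so the lack of calls follows from the choice and is no separate result.

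Markers of the sorted population and of other cells were measured beside these results. The summed level of 10 T cell genes was 5261 to 6210 CPM in ANT and 5368 to 5955 CPM in SAS. Of the 10, 7 were not called, beside 37.4% of all genes tested that were called. Zap70 and Cd28 were higher in SAS (0.86 and 0.74, adjusted p 0.000134 and 0.00237, edgeR), and Lat was higher in ANT (-0.45, adjusted p 0.0117, edgeR). The 8 NK cell genes summed to 33.7 to 42.1 CPM in ANT and 3.69 to 6.31 CPM in SAS. Most of it was the perforin gene Prf1, and Ncr1, Klra8, Klre1 and Klra4 were at 0 in all libraries. Of the 3 NK cell genes tested, Prf1 and Gzma were called higher in ANT. The third, Klrb1c, rose from a mean of 0.0345 CPM in ANT to 0.792 CPM in SAS (adjusted p 0.000385, edgeR). The 8 B cell genes summed to 639 to 689 and 124 to 183 CPM, of which all but 1.41 to 3.34 and 1.41 to 3.40 CPM was Ighm. The 8 myeloid genes summed to 4.37 to 7.07 and 3.04 to 9.54 CPM. Dendritic cell genes, 8 in number and all below the filter, summed to 0.216 to 0.515 CPM in ANT and 0.739 to 1.26 CPM in SAS. The largest rises were those of Itgax, from 2 to 49 counts, and Zbtb46, from 7 to 28. Flt3 had 33 and 35 counts, Clec9a 1 and 1, and Cd209a 0 and 1. Siglech and Batf3 each had 1 and 0, and Xcr1 had none. The part of dendritic cell genes in the results was not tested. The 6 genes of CD8+ and γδ T cells summed to 429 to 590 and 362 to 440 CPM, most of it Trdc. Without Trdc they summed to 14.3 to 67.1 CPM in ANT and 3.15 to 7.54 CPM in SAS. Of the 5 tested, 2 were called higher in SAS and 1, Cd8b1, higher in ANT. The 2 were the γδ genes Tcrg-C2 and Tcrg-C4. Their means rose from 0.0695 to 0.968 and from 0.0172 to 0.697 CPM (adjusted p 0.00322 and 0.000509, edgeR). The part of Tcrg-C2 and Tcrg-C4 in the results was not tested. Cd8b1, the CD8 beta chain, fell from 33.6 ± 21.1 to 2.42 ± 0.725 CPM (SD, n = 4 each; log2 fold change -3.80, adjusted p 0.000109, edgeR), beside the rise of Tox and Tox2, and its part in that was not tested. The 7 erythroid genes summed to 0.828 to 12.9 and 1.28 to 5.85 CPM. Cell division genes moved with the SAS clone, with 7 of 8 called higher in SAS, beside 19.8% of all genes tested. The part of cell division genes in the differences of Tox and Tox2 was not tested.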

How the data were processed

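RNA was measured in 8 libraries of sorted CD4+ T cells, made with a strand-specific TruSeq mRNA kit per the labels' protocols. The authors deposited raw counts per gene. The submitters' processing notes name STAR, featureCounts and mm10, and versions, annotation release, strand setting and treatment of multi-mapping reads are not given in the sources used here. Identifiers were matched to GENCODE M21 (38872 of 39056). Genes passing filterByExpr (12619) were fitted with edgeR 4.0.16 (R 4.3.3; TMM, robust quasi-likelihood, clone as the factor), with Benjamini-Hochberg adjustment over all of them and a threshold of 0.05. CPM and TPM were computed here from the counts, and log2 ratios of members used a prior count of 0.5. The scripts were tested on simulated data. The members and gene lists were chosen with earlier results of these data known. The rule for naming took the members, their overlapping and nearest tested neighbours, the 5 nearest profiles, and from each list the 2 called genes of smallest p in its main direction with any up to 3 called the other way. Of the genes under this rule, the neighbours Chd8, Gm26590, Trav8d-2 and Gm11810 and the list genes Cd68 (log2 fold change -0.73) and Top2a (2.61) were not described above. Other list genes named (those not called, those below the filter, Sox12 and Sox13, Nfatc1) were chosen after their values were seen. Alternatives were DESeq2 1.42.0, limma-voom 3.58.1, other scalings and filters, a fold threshold, a replicate block and left-out libraries.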

Additional observations from a re-analysis of the deposited data

Results flagged for a closer look

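Tox3 in SAS replicate 2 stood apart from the other SAS libraries, at 0.105 CPM (3 counts) where the others had none. It was 1 of 8 groups of 4 libraries examined for a library far from the rest (4 genes in 2 clones). Where all other libraries of a group have 0 counts, any count at all is flagged. The flag therefore says nothing about the size of the difference, and the usual rate of 1 chance flag in 20 groups does not hold here. The same library had the highest Tox and the lowest Tox4 of the SAS clone. The longest run of bases shared by transcripts of Tox and Tox3 was 24 bases, and the part of shared reads in these 3 counts was not tested.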

How the results depend on the processing

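Under 20 alternatives Tox stayed called (log2 fold change 1.57 to 1.73), as did Tox2 (4.14 to 5.04), and Tox4 was called in 1, on library size alone (0.26). That scaling gave 4730 called genes with 64.8% higher in SAS, against 52.8% of 4725, and a median over all genes that was 0.0975 higher on the log2 scale. Against a fold change of 1.5, 1836 genes were called, 1205 higher in SAS and 631 in ANT. With each library left out in turn, 3964 to 4700 genes were called, and the pairwise differences were 2.62 to 3.30 for Tox2 and Tox, 4.10 to 4.76 for Tox2 and Tox4, and 1.36 to 1.57 for Tox and Tox4 (exact permutation p 0.0571, the smallest possible). With 1 transcript length the ratio of Tox to Tox4 was 0.867 in ANT and 2.44 in SAS. Small differences of neighbouring genes changed sign, and the cause was not tested: on library size Chd9 had 0.062, Mettl3 0.043 and Sdcbp 0.076; without ANT replicates 1 and 3 they had 0.16, 0.042 and 0.22; without ANT replicates 4 and 5 Ift52 had -0.052; and with each library left out in turn Chd9 ran from -0.13 to 0.025, Mettl3 from -0.15 to 0.031 and Sdcbp from -0.12 to 0.087. Replicate numbers 1 and 3 occur in both clones, but their deviations correlated at 0.293 and -0.121, so that a shared batch was neither shown nor excluded and the numbers were not used as pairs; a fit with the replicate block (1 residual degree of freedom) called 5798 genes, with Tox at 1.58, Tox2 at 5.04 and Tox4 at 0.22. Depth limits Tox3, and Tox2 in ANT.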

Other observations

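Genes of cell division that the family comparison did not use were higher in SAS in 7 of 8 tested cases, beside 19.8% of all genes tested. Their median log2 fold change was 1.60. Mki67, a marker of cycling cells, rose from 1.30 ± 0.287 to 28.6 ± 17.3 CPM (SD, n = 4 each; log2 fold change 4.45, adjusted p 5.24e-05, edgeR), while Pcna, the replication clamp, had -0.09 and was not called (adjusted p 0.557, edgeR).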
